A study of Mus musculus with 20 samples.

Results

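The livers of 10 adult male mice whose dams lived in the cold during gestation were compared with those of 10 males whose dams lived warmer, so that the comparison takes in all 20 arrays of the study. The cold pool joined the arrays titled for 10 °C dams and for 18 °C dams, and the warm pool those titled for 23 °C dams and for 30 °C dams, with 5 mice and 5 arrays at each temperature. All animals were C57BL/6NCr, an inbred strain, 4 to 5 months old, fed chow, and raised at 23 °C from birth on. Dams had been acclimated for 2 weeks at 10 °C or 18 °C and for 3 weeks at 30 °C, sires had been exposed for 3 days, and 23 °C was the standard housing of the control group. Every difference below is cold minus warm on the log2 scale, and the genes described are those shared by both cold groups. A gene was counted as shared when the 10 °C group and the 18 °C group each differed from the 10 warm arrays with the sign of the pooled difference and at an unadjusted limma p under 0.05.

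The liver makes most plasma proteins, complement and clotting factors among them, burns or stores fatty acids, and holds resident macrophages, the Kupffer cells. Interferons act on liver cells through receptors that activate STAT and IRF transcription factors, and these switch on a set of antiviral genes, Ifit1, Irf7 and the interferon-inducible GTPases among them. PPARA, a nuclear receptor for fatty acids, drives genes of fatty acid breakdown such as Cyp4a10 and Cyp4a14, while Mlxipl, also called ChREBP, is a sugar-responsive activator of glycolysis and fat synthesis.

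IRF factors bind promoter elements of the form GAAANNGAAA. The promoters of 2 shared interferon-responsive genes are shown because Ifit1 had the smallest p of the higher genes, Igtp was the first of the GTPases, and both carry the element within the 250 bases before the start. Both stretches are from RefSeq, build GRCm38.p6, plus strand, 60 bases each, and capitals mark matches to GAAANNGAAA on either strand. The Ifit1 stretch is chr19:34640769-34640828, with matches that begin 104 and 85 bases before the start. In Igtp it is chr11:58199496-58199555, with a match 34 bases before the start.
Ifit1: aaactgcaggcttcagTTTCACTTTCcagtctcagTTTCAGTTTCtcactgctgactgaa
Igtp: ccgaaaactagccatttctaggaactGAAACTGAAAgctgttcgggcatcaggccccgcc
Of 27025 RefSeq genes with a promoter window, 936 (3.46%) held the motif. It was held by 14 of 34 interferon response genes (41.2%) and by 9 of 10 interferon-inducible GTPases (90.0%), lists that are defined by the response to interferon. Among the shared genes, 7 of 170 that stood higher in the cold pool (4.12%) and 4 of 168 that stood lower (2.38%) held it. No match was found in the windows of Irf7 and Cxcl13, which says only that these letters are not in them.

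The table held 22206 transcript clusters, the array's gene-level units, of which 19572 carried 1 gene symbol. Correlations between arrays lay between 0.987 and 0.993 and no pair of arrays was identical. A cluster was taken as above background when its mean exceeded 3.90, the 95th percentile of 1091 olfactory receptor clusters, and 12464 did. This limit lies below the mean of the negative control rows on every array (4.40 to 4.75). A cluster called above background here can therefore still read no higher than those control rows. All 14 hepatocyte markers measured were above that level, against 3 of 9 markers of pancreatic acinar cells, 1 of 9 of neutrophils and 1 of 8 of B and plasma cells. The labels name 5 mice a group but no litter, dam or batch, so the p-values measure the spread between these arrays.

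The background control rows, probes without a mouse target that are sorted by their GC number, differed between the pools. Their mean stood at 3.71 ± 0.03 (SD, n = 10) in the cold arrays and 3.65 ± 0.04 (SD, n = 10) in the warm arrays, a difference of 0.055 (permutation test, two-sided, p = 0.00435). By group the means were 3.71 at 10 °C, 3.71 at 18 °C, 3.65 at 23 °C and 3.66 at 30 °C. The pools overlapped through the 18 °C array of animal 5, the lowest cold array at 3.64, and the 30 °C array of animal 4, the highest of all at 3.75. The difference was not one of all rows: 14 of the 23 rows, those with GC numbers 6 to 19, stood higher in the cold pool, by up to 0.24 at GC number 8, and the other 9 stood lower. The median over the rows differed the other way, by -0.014 (permutation p = 0.00447), but it fell on the row with GC number 25, 1 of these 9. The mean of the 5222 negative control rows was also lower in the cold pool, at 4.51 against 4.61 (permutation p = 0.00178). Array medians over the clusters differed by 0.003 (permutation p = 0.754). The background level therefore moves with the pools, and differences with this level as a covariate are given for the main genes and lists below; its part in the results was not tested beyond that.

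**Figure D1:**
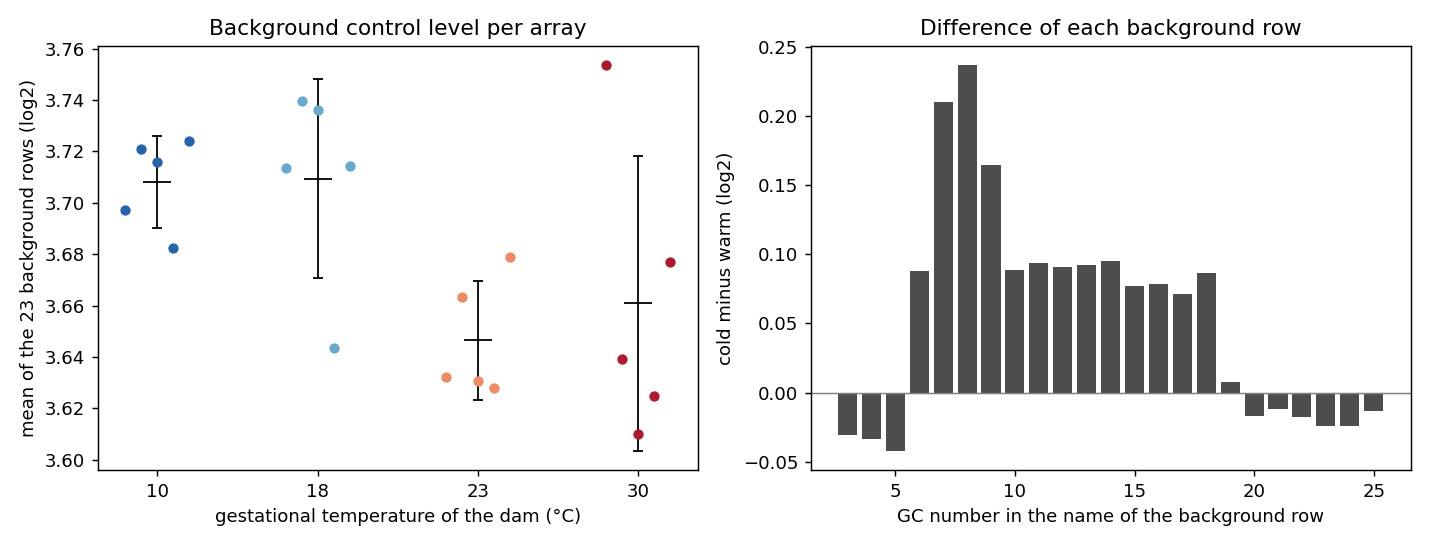
The left panel plots the mean log2 level of the 23 background rows of each array against the dam's temperature in °C, with the mean ± SD of each group of 5, and the right panel plots the cold minus warm log2 difference of each row against its GC number. The cold arrays mostly lie above the warm ones, except 18 °C animal 5 (3.64) and 30 °C animal 4 (3.75), and the difference is largest at GC number 8 (0.24).

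Across all clusters, 1 passed the test (limma, adjusted p under 0.05), which is 0.0045% of those tested, and it was lower in the cold pool. It is TC1600000930.mm.2, which has no symbol in the annotation, so it lies outside the naming rule and was singled out after its values were seen. At 10 °C its 5 log2 values were 11.21, 11.55, 11.68, 11.91 and 11.26, and at 18 °C they were 10.43, 11.35, 11.56, 11.58 and 11.32. The 23 °C arrays read 12.47, 12.26, 12.41, 12.51 and 12.54. The 30 °C arrays read 11.73, 12.59, 12.40, 12.67 and 12.29. The pools would be apart but for 30 °C animal 4, at 11.73 below the highest cold array, and this is the array with the highest background level. The cluster fell by 1.002 ± 0.144 (SE, n = 10 against 10), a 2.00-fold difference, with an adjusted p of 0.0112 in limma and all 10 cold arrays below the warm median. Both cold groups carried it, with -0.86 at 10 °C and -1.14 at 18 °C. Once the background level was in the fit, the difference was -0.76 and the adjusted p 0.347, so the call did not hold. Since that level itself differs between the pools, this fit cannot fully separate it from the pool difference. Against the 23 °C arrays alone it was -1.05 (adjusted p = 0.0559) and against the 30 °C arrays alone -0.95 (adjusted p = 0.211).

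With the covariate in the fit, 0 clusters passed (0% of those tested), the smallest adjusted p in limma being 0.180, for Cxcl13, and 1427 clusters had an unadjusted p under 0.05. Without it, 2554 had such a p, 1267 higher in the cold pool (5.71%) and 1287 lower (5.8%). There were 0 clusters (0%) whose 10 cold and 10 warm arrays did not overlap. Among all 22206 clusters, 508 (2.29%) were shared by both cold groups, 243 higher (1.09%) and 265 lower (1.19%). Of these, 273 had a symbol and lay above background, 125 higher and 148 lower. The absolute pooled differences of the shared clusters ran from 0.22 to 1.79, with a median of 0.43. With the covariate 328 clusters were shared (1.48%), 112 of them among the 508, while 507 of the 508 kept their sign and 250 of the 508 kept both the sign and an unadjusted p under 0.05. Between the cold groups, 10 °C minus 18 °C, 9 of the 508 had an unadjusted p under 0.05, beside 1799 of all 22206 clusters, and no cluster passed the test (smallest adjusted p = 0.224 in limma). A low count among the 508 follows from their choice, since both cold groups had to differ from the warm arrays in the same direction. Since none of the named genes below passed the test, their values are given without a call.

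**Figure D2:**
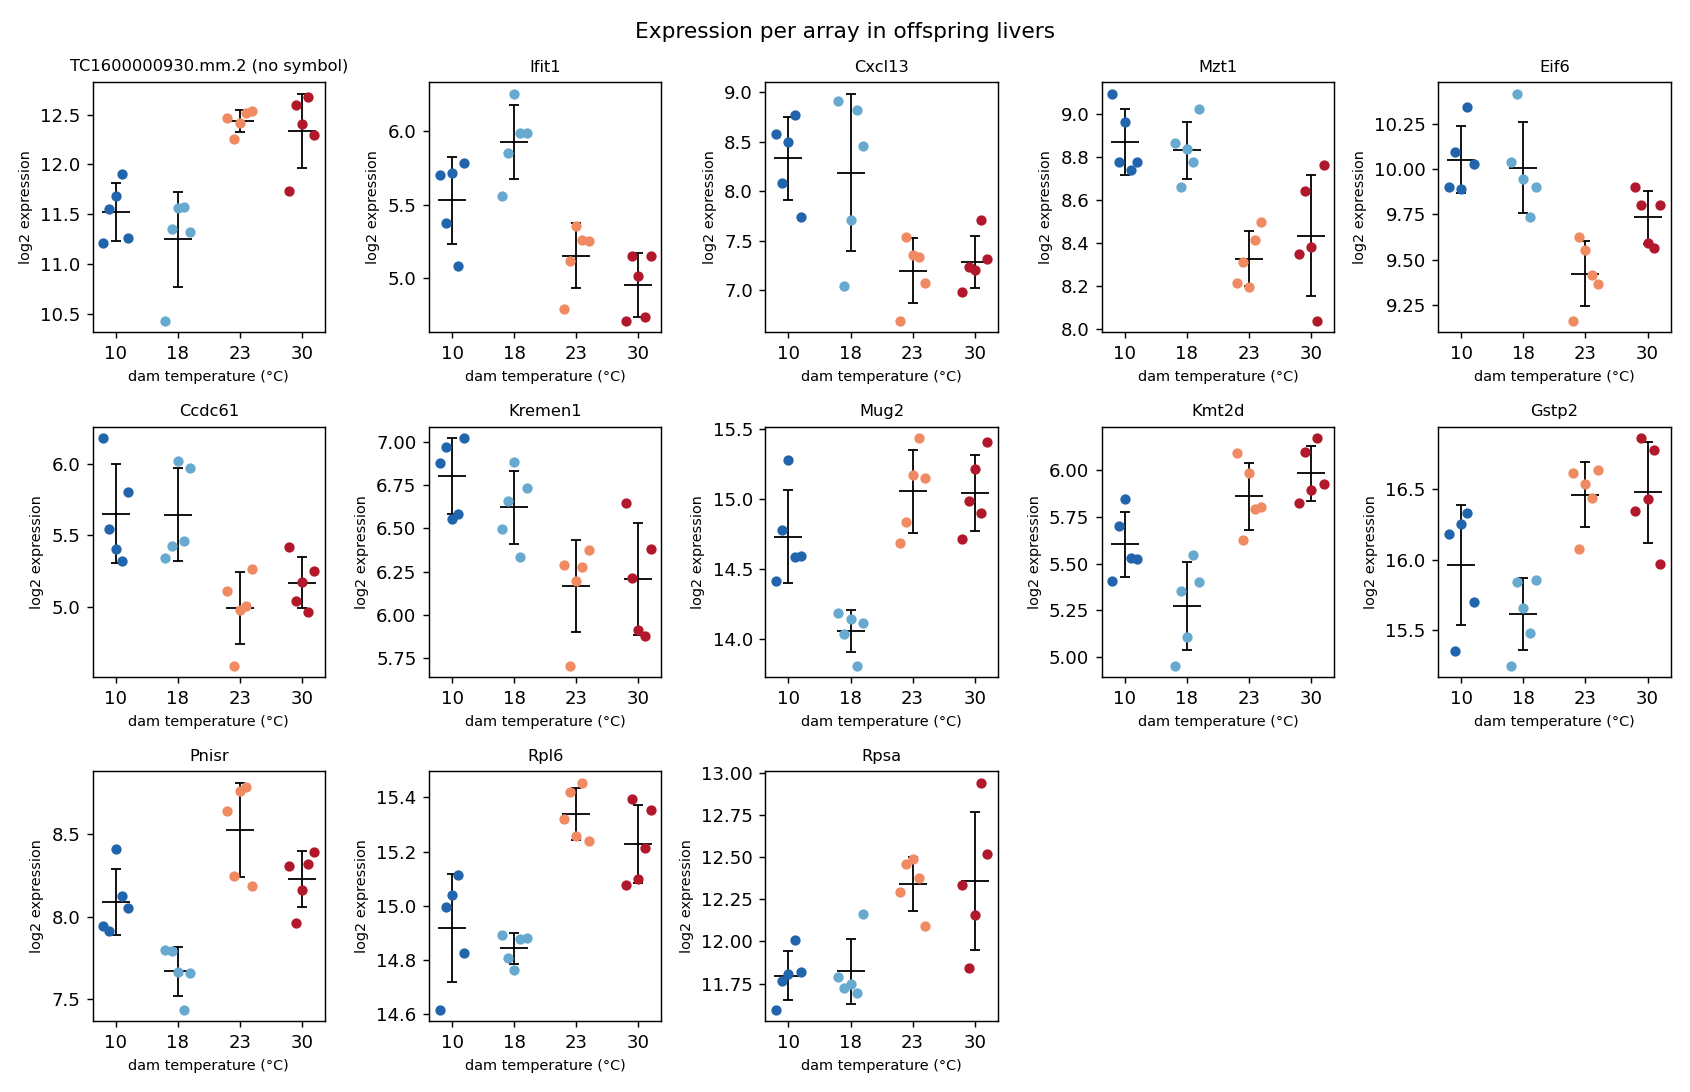
Log2 expression (vertical axes, each panel with its own range) is plotted for each array against the dam's temperature in °C, with the mean ± SD of each group of 5, for the cluster that passed the test and the 6 shared genes with the smallest p in each direction. In every panel both cold group means lie on the same side of both warm group means, and in every panel single arrays of the pools overlap.

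On the higher side, the smallest p-values were those of Ifit1 and Cxcl13. Ifit1, which binds viral RNA that lacks host methylation, had values of 5.08 to 6.26 in the cold arrays (median 5.75) and 4.71 to 5.35 in the warm arrays (median 5.13). Only 10 °C animal 6, at 5.08, lay below the warm median. Its difference was 0.68 ± 0.12 (SE, n = 10 against 10; adjusted p = 0.0680 in limma), 0.48 at 10 °C and 0.88 at 18 °C, and 0.68 with the covariate (adjusted p = 0.347). Cxcl13, a chemokine that draws B cells, ran from 7.04 to 8.91 in the cold arrays (median 8.48) and from 6.68 to 7.70 in the warm arrays (median 7.27). The spread was wide at 18 °C, where animal 3 read 7.04 and animal 1 read 8.91. The difference of Cxcl13 was 1.02 ± 0.20 (adjusted p = 0.114 in limma), nearly alike at 10 °C (1.09) and 18 °C (0.95), and 1.37 with the covariate (adjusted p = 0.180). With the negative control rows as a covariate instead, an alternative added after the data were seen, Cxcl13 differed by 0.57 (adjusted p = 0.424).

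Irf7, the transcription factor that amplifies interferon production, ranged from 8.01 to 9.33 (median 8.56) in the cold arrays and from 7.25 to 8.78 (median 8.10) in the warm ones. It differed by 0.68 ± 0.18 (adjusted p = 0.174), or 0.48 with the covariate, and 8 of 10 cold arrays lay above the warm median. Igtp, a GTPase that guards against intracellular pathogens, ranged from 7.25 to 8.10 in the cold arrays and from 6.85 to 7.56 in the warm arrays. The difference of Igtp was 0.50 ± 0.12 (adjusted p = 0.159), with 9 of 10 cold arrays above the warm median. Rtp4 (0.44 ± 0.12), an interferon-induced chaperone of receptors, and Gbp9 (0.42 ± 0.13), a guanylate-binding protein, had all 10 cold arrays above the warm median. Usp18, which removes the ISG15 tag from proteins, differed by 0.55 ± 0.17; it lies outside the naming rule and was named after its values were seen. On the lower side, Ifit1bl1 differed by -0.56 ± 0.17 at a level below background (mean 3.28).

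Of 44 measured genes of the interferon response list, 0 passed the test, 36 stood higher and 8 lower in the cold pool, and the median difference was 0.16, beside 0.004 over all clusters. Unadjusted p-values under 0.05 were found for 13 higher and 1 lower, and 4 higher and 1 lower were shared. Over all clusters 50.9% stood higher, 5.71% higher and 5.8% lower had such a p, and 1.09% higher and 1.19% lower were shared. These shares are the measure for the counts of every list below. Among the 11 interferon-inducible GTPases, 9 stood higher, with a median of 0.23, and 2 were shared, both higher. The medians were 0.11 and 0.17 with the covariate. In that fit 5 higher and 1 lower of the interferon response list were shared, and 1 GTPase, on the higher side. The 20 genes of the immunoproteasome and antigen presentation had a median of 0.09, or 0.07 with the covariate, with 15 higher and 0 shared. The pools overlapped in the level of the interferon response list, taken on each array as the median member's deviation from its own mean over the 20 arrays. It ran from -0.03 to 0.19 in the cold arrays and from -0.35 to 0.04 in the warm arrays.

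Most of the measured markers of liver macrophages and endothelium also stood higher. Adgre1, a surface protein that defines mouse macrophages, ran from 6.14 to 7.74 in the cold arrays (median 6.75) and from 5.40 to 6.93 in the warm arrays (median 6.17). Its difference was 0.63 ± 0.19 (adjusted p = 0.211), or 0.50 with the covariate, and 9 of 10 cold arrays lay above the warm median. Over the macrophage and Kupffer cell list 15 of 18 measured markers stood higher, with a median of 0.26, or 0.13 with the covariate. The list's level ran from -0.15 to 0.36 in the cold arrays and from -0.52 to 0.36 in the warm ones. Of the 18 markers, 14 were above background, and 4 higher and 1 lower had an unadjusted limma p under 0.05. Adgre1 was the 1 shared marker, and with the covariate 0 were shared. Flt4, a receptor for lymphatic vessel growth factors that liver endothelium carries, differed by 0.38 ± 0.13, or 0.21 with the covariate. Of 14 endothelial markers 10 stood higher (median 0.17, or 0.19 with the covariate). Flt4 was the 1 shared, beside 1.09% of all clusters on the higher side. Cd3d, a subunit of the T cell receptor complex, differed by 0.67 ± 0.17 (adjusted p = 0.163) and Cd3g by 0.38 ± 0.11, but at mean levels of 3.95 and 2.62, close to and below the background level. Of 14 markers of T and NK cells, 9 stood higher (median 0.05, or 0.02 with the covariate), and only 4 were above background. The 14 hepatocyte markers had a median of -0.03, with 12 lower and 0 shared, and with the covariate 7 stood higher and 7 lower. In bulk liver RNA, more cells of a type and more RNA per cell cannot be told apart, and the part of these markers in the interferon values was not tested.

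The other higher genes with the smallest p-values have varied roles. Mzt1, a component of the gamma-tubulin complex that seeds microtubules, ran from 8.66 to 9.10 in the cold arrays (median 8.81) and from 8.04 to 8.76 in the warm arrays (median 8.37). All 10 cold arrays lay above the warm median, and the difference was 0.47 ± 0.10 (adjusted p = 0.114). Eif6, which keeps the large ribosomal subunit from joining the small one too early, ran from 9.74 to 10.42 (median 9.99) against 9.16 to 9.90 (median 9.58). Its difference was 0.45 ± 0.10 (adjusted p = 0.114), and again all 10 cold arrays lay above the warm median. Ccdc61, a centriole protein, ran from 5.32 to 6.18 (median 5.50) against 4.59 to 5.42 (median 5.07) and differed by 0.57 ± 0.13. Kremen1, a receptor that dampens Wnt signalling, ran from 6.33 to 7.02 (median 6.70) against 5.71 to 6.65 (median 6.25) and differed by 0.53 ± 0.12. The difference of Kremen1 was 0.28 with the covariate, so it moved by more than 1.5 times, while that of Ccdc61 was 0.44.

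The remaining higher genes differed by 0.44 to 0.55, with adjusted p-values of 0.130 to 0.163. They were Pgap2 (0.55), which remodels GPI anchors, Zfp784 (0.54), a zinc finger protein, Kif23 (0.50), a kinesin of cytokinesis, and Rcn2 (0.47), a calcium-binding protein of the endoplasmic reticulum. Unc119 (0.47), which carries lipid-modified proteins, Snx8 (0.46), a sorting nexin, and Iqcg (0.44), a protein of cilia, completed them. Kif23 and Iqcg had mean levels of 4.41 and 4.04 and Zfp784 one of 4.73, no higher than the levels that the negative control rows reached on single arrays (4.40 to 4.75).

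The largest difference of any shared cluster was that of a PPARA-driven gene. Cyp4a14, a fatty acid omega-hydroxylase and a standard readout of PPARA, ran from 12.17 to 16.79 in the cold arrays (median 14.87) and from 10.85 to 14.54 in the warm arrays (median 12.93). Its difference was 1.79 ± 0.58, a 3.45-fold difference, with an adjusted p of 0.246 in limma and 8 of 10 cold arrays above the warm median. The highest cold arrays were 10 °C animal 6 (16.79) and 18 °C animal 5 (16.76). Cyp4a10, its close relative, ran from 13.42 to 16.30 (median 14.86) against 12.74 to 15.22 (median 13.75) and differed by 1.102 ± 0.325 (adjusted p = 0.203). The same arrays, 10 °C animal 6 and 18 °C animal 5, were the highest for Cyp4a10. Both depended on the warm group chosen: Cyp4a14 differed by 1.11 from the 23 °C arrays and by 2.47 from the 30 °C arrays, and Cyp4a10 by 0.63 and 1.57. Cyp4a genes are similar in sequence, so probes may read more than 1 of them. Acaa1a, a peroxisomal thiolase with a near-identical copy in Acaa1b, differed by 0.34 ± 0.11.

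Of the 40 measured genes of PPARA targets and fatty acid oxidation, 35 stood higher and 5 lower, with a median of 0.20 and 0 that passed the test. Unadjusted p-values under 0.05 were found for 12 higher and 0 lower, and 3 were shared. The median was 0.31 with the covariate, a fit in which 6 were shared, all higher. Without the covariate, it was 0.12 when 10 °C animal 6 was left out. Leaving out 1 array at a time gave between 0 and 5 shared members. The lists of fatty acid synthesis and of cholesterol synthesis and uptake were not alike in the cold groups. Fatty acid synthesis had a median of -0.11 at 10 °C and 0.51 at 18 °C, and cholesterol synthesis -0.13 and 0.63. Without 30 °C animal 5, the pooled medians went from 0.15 to 0.02 for fatty acid synthesis and from 0.30 to -0.01 for cholesterol synthesis. With the covariate and all arrays they were 0.31 and 0.38. The only shared gene of either list, Mlxipl, stood on the lower side. It ran from 11.34 to 12.48 in the cold arrays (median 12.02) and from 12.19 to 13.13 in the warm arrays (median 12.59), with all 10 cold arrays below the warm median. The difference of Mlxipl was -0.60 ± 0.13 (adjusted p = 0.114), or -0.78 with the covariate.

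**Figure D3:**
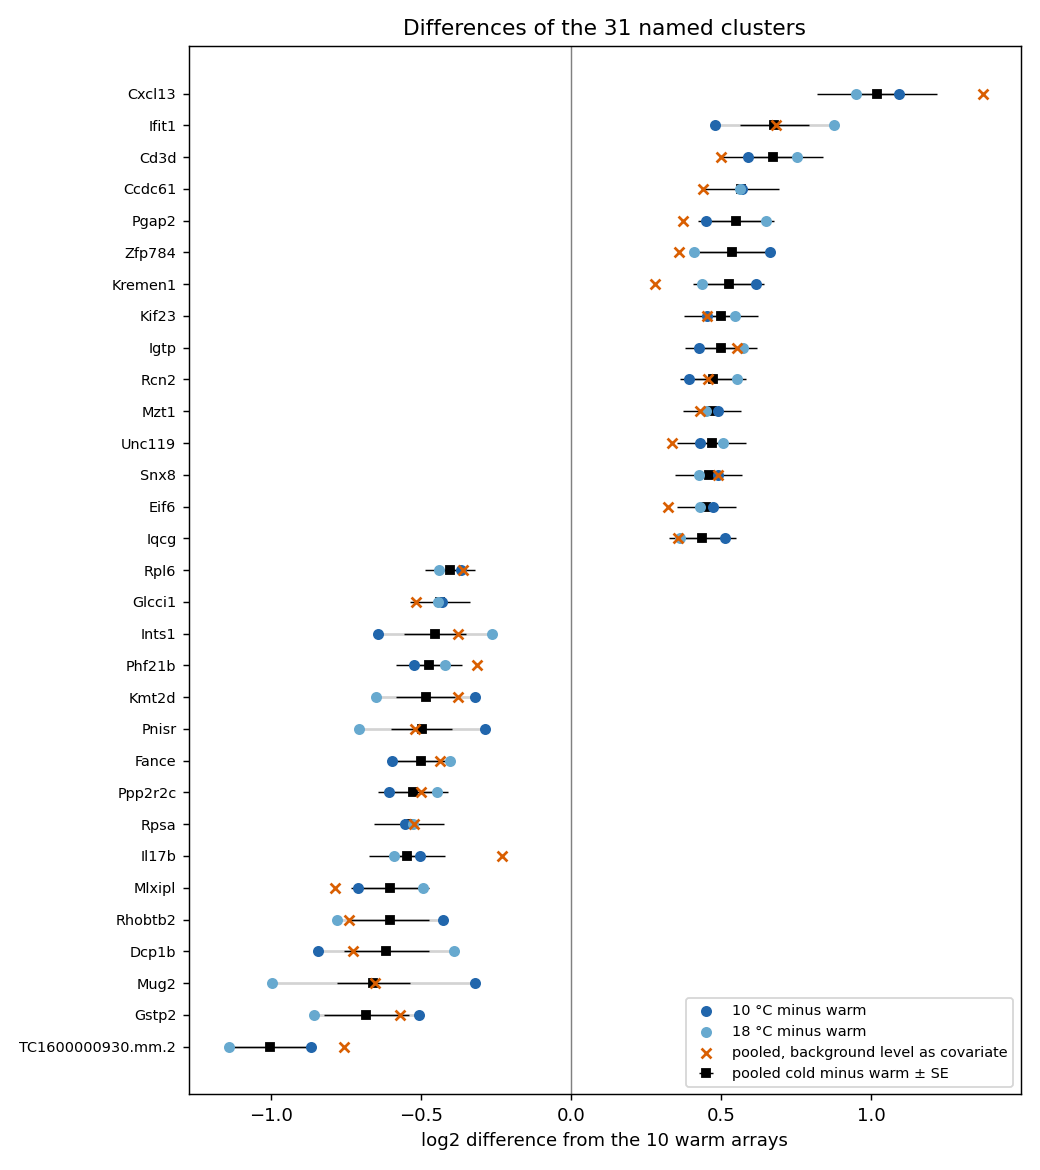
For the 31 clusters chosen by the smallest p, the horizontal axis gives log2 differences from the 10 warm arrays, for the 10 °C group, the 18 °C group, the pooled cold arrays with the standard error, and the pooled arrays with background level in the fit. The cold groups fall on the same side of 0 by the choice of the genes; the covariate brings Kremen1 from 0.53 to 0.28 and Il17b from -0.55 to -0.23, and takes Cxcl13 from 1.02 to 1.37.

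Of the gene lists described here, the cytosolic ribosomal proteins had the most shared members on the lower side by count (7 of 58). The share was similar in the smaller complement and coagulation list (4 of 36). Rpl6, of the large subunit, ran from 14.62 to 15.12 in the cold arrays (median 14.88) and from 15.08 to 15.45 in the warm arrays (median 15.29). The pools overlapped only between 15.08 and 15.12, and the difference was -0.40 ± 0.08 (adjusted p = 0.114). Rpsa, of the small subunit, ran from 11.59 to 12.16 (median 11.78) against 11.84 to 12.94 (median 12.35) and differed by -0.54 ± 0.12 (adjusted p = 0.114). Its highest cold array was 18 °C animal 7, and all 10 cold arrays lay below the warm median. Rps16 (-0.39 ± 0.10) and Rpl37a (-0.37 ± 0.09) likewise had all 10 below it. With the covariate the differences were -0.36 for Rpl6, -0.52 for Rpsa, -0.35 for Rpl37a and -0.24 for Rps16. Ribosomal protein genes have many processed pseudogenes, from which probes may not tell them apart.

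Over the 58 measured cytosolic ribosomal protein genes, all above background, 56 stood lower and 2 higher. Their median was -0.17, beside 0.004 for all clusters and -0.008 for the 12464 above background. None of the 58 passed the test, while 25 lower and 1 higher had an unadjusted p under 0.05. Among the 12464, 919 lower and 717 higher had such a p, and 195 lower and 138 higher were shared. Of the shared members of the list 7 were lower and 1 higher, the higher one being Rps27l (0.31 ± 0.10), named after its values were seen. With the covariate the median was -0.18, and 5 lower and 0 higher members were shared. Without the covariate, the median lay between -0.19 and -0.15 when single arrays were left out. The level of the list ran from -0.19 to -0.01 in the cold arrays and from -0.12 to 0.30 in the warm arrays. The 77 mitochondrial ribosomal protein genes had a median of -0.01, with 36 higher and 41 lower. Of these 77, Mrpl24 (-0.34 ± 0.10) was the 1 shared member, which is near the 1.19% of all clusters shared on the lower side.

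Complement and clotting factors of the hepatocyte stood lower. Cfb, the protease of the alternative complement pathway, ran from 12.87 to 13.81 in the cold arrays (median 13.25) and from 13.54 to 14.31 in the warm arrays (median 13.84). Its difference was -0.53 ± 0.13 (adjusted p = 0.163), or -0.30 with the covariate, and all 10 cold arrays lay below the warm median. C2, its counterpart in the classical pathway, ran from 10.30 to 10.93 against 10.68 to 11.03 and differed by -0.32 ± 0.09 (adjusted p = 0.186). Serpind1, heparin cofactor II, an inhibitor of thrombin, differed by -0.28 ± 0.08, and Kng1, the precursor of bradykinin, by -0.22 ± 0.08. All 10 cold arrays of C2, Serpind1 and Kng1 lay below the warm median. Of the 36 genes on the list, 34 stood lower and 2 higher, with a median of -0.14, or -0.13 with the covariate. Among them 0 passed the test, 12 had an unadjusted p under 0.05, all lower, and 4 were shared. With the covariate 0 were shared, and leaving out 1 array at a time gave between 1 and 7.

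Mug2, a murinoglobulin that traps proteases in plasma, ran from 13.81 to 15.28 in the cold arrays (median 14.30) and from 14.69 to 15.44 in the warm arrays (median 15.07). Its difference was -0.66 ± 0.12 (adjusted p = 0.112), but unequal, with -0.320 at 10 °C and -0.996 at 18 °C (unadjusted p = 0.000736 and adjusted p = 0.388 for 10 °C minus 18 °C in limma). The 18 °C arrays lay wholly below the warm arrays, while 10 °C animals 4 and 5, at 14.78 and 15.28, lay among them. Of the 30 acute phase genes, 20 stood lower (median -0.08, and -0.03 with the covariate). Mug2 was the 1 shared member, beside 1.19% of all clusters on the lower side.

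Gstp2, a glutathione transferase with a close copy in Gstp1, ran from 15.25 to 16.33 in the cold arrays (median 15.77) and from 15.97 to 16.86 in the warm arrays (median 16.49). Its difference was -0.68 ± 0.14 (adjusted p = 0.114), and all 10 cold arrays lay below the warm median. Of the list of sex-biased liver genes and the growth hormone axis, to which it belongs, 22 of 30 stood lower. The median was -0.14, or -0.10 with the covariate. Gstp2 was the 1 shared member, beside 1.19% of all clusters on the lower side.

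Several lower genes act on chromatin and RNA. Kmt2d, a methyltransferase of histone H3 at enhancers, ran from 4.95 to 5.85 in the cold arrays (median 5.47) and from 5.63 to 6.17 in the warm arrays (median 5.91). It differed by -0.48 ± 0.10 (adjusted p = 0.114), with -0.32 at 10 °C and -0.65 at 18 °C. Pnisr, a splicing-associated protein of nuclear speckles, ran from 7.44 to 8.41 (median 7.85) against 7.96 to 8.79 (median 8.31) and differed by -0.50 ± 0.10 (adjusted p = 0.114). For Pnisr the 18 °C arrays were again the lower ones, at -0.71 beside -0.29 at 10 °C. Son, a scaffold of the same speckles, differed by -0.40 ± 0.10, and Prpf38b by -0.26 ± 0.09, whereas Prpf31, a component of the spliceosome, differed by 0.39 ± 0.11. Of 79 splicing factors, 57 stood lower and 22 higher (median -0.10). Of these 79, 3 lower and 1 higher were shared, beside 1.19% lower and 1.09% higher of all clusters. With the background covariate the median was -0.08 and 0 were shared. With the negative control rows as a covariate the median was 0.01, so its direction depends on that choice. That covariate also brought Rtp4 to 0.25, Snx8 to 0.25, Zfp784 to 0.33 and Prpf38b to -0.16, with their signs kept.

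Ints1, a subunit of the Integrator that ends many transcripts, differed by -0.45 ± 0.10, and Dcp1b, of the mRNA decapping complex, by -0.62 ± 0.14. Both were further from the warm arrays at 10 °C (-0.64 and -0.84) than at 18 °C (-0.26 and -0.39). Rhobtb2, an adaptor of cullin ubiquitin ligases (-0.60), Il17b, a cytokine (-0.55), Ppp2r2c, a subunit of protein phosphatase 2A (-0.53), and Fance, of the Fanconi DNA repair pathway (-0.50), had adjusted p-values of 0.114 to 0.131. Phf21b, a PHD finger protein (-0.47), and Glcci1, a glucocorticoid-induced transcript (-0.44), completed the lower side. With the covariate Il17b differed by -0.23 and Phf21b by -0.31. Dcp1b, Ppp2r2c and Il17b lay at mean levels of 4.46, 4.18 and 4.69. These are also no higher than the levels that the negative control rows reached on single arrays (4.40 to 4.75). The level of Il17b was above the mean of those rows in both pools (4.51 cold, 4.61 warm).

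Among the 51 clusters named by the rule or called, 8 had a difference smaller by over 1.5 times against 1 warm group than against the pool, with the sign kept. For Cyp4a10 and Cyp4a14 this was the 23 °C group, as given above, and for the other 6 the 30 °C group. Against the 30 °C arrays alone Igtp differed by 0.30, Eif6 by 0.30, Flt4 by 0.16, Fance by -0.27, Ppp2r2c by -0.32 and Il17b by -0.34. Against the 23 °C arrays alone these genes differed by 0.70, 0.61, 0.61, -0.73, -0.73 and -0.75 in the same order. The difference between the warm groups was not tested.

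**Figure D4:**
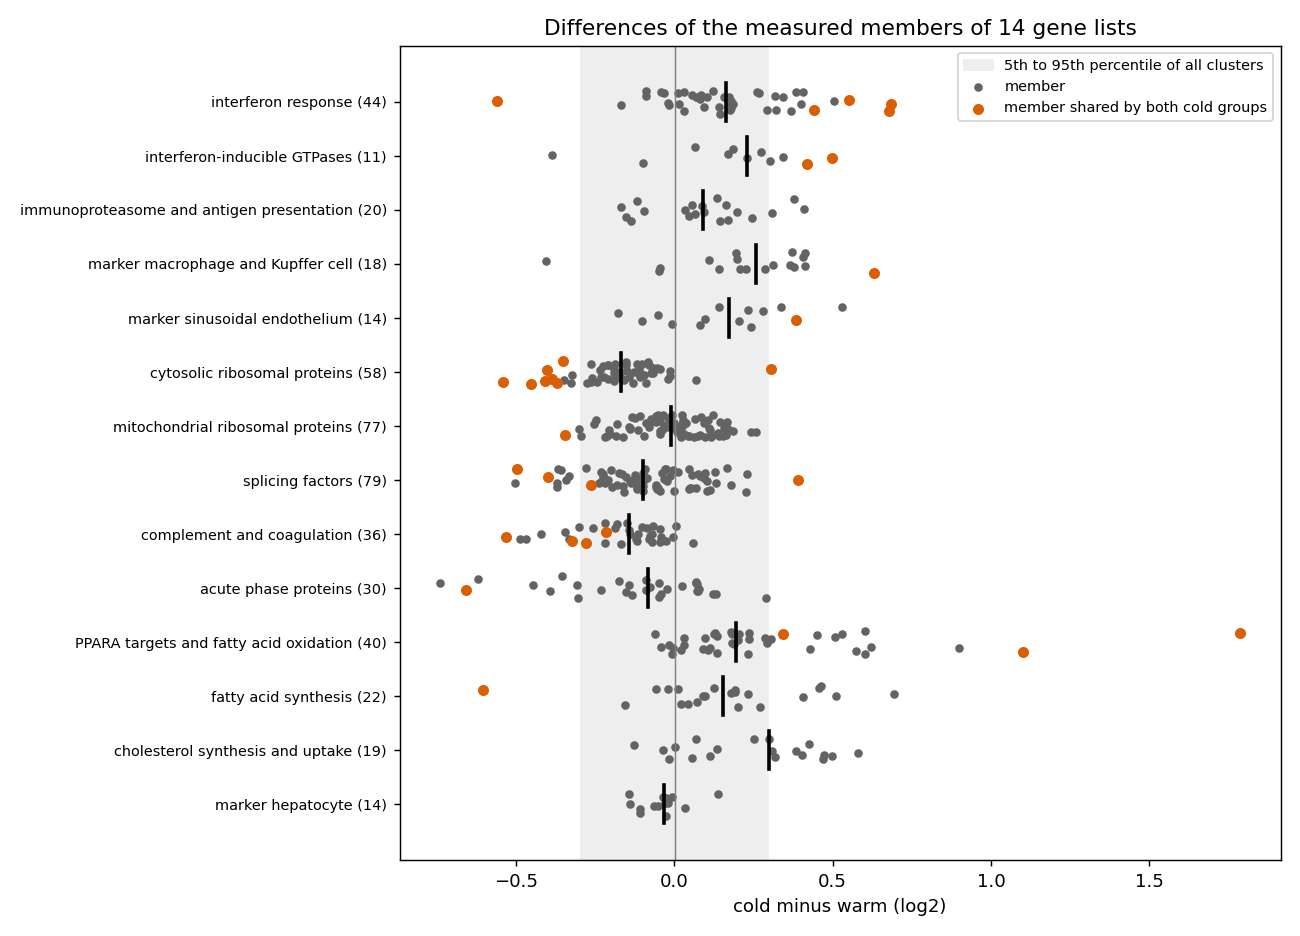
Each point is the cold minus warm log2 difference (horizontal axis) of a measured member of 14 gene lists (vertical axis, number of members in parentheses; vertical jitter only separates points), black bars are list medians, and the grey band spans the 5th to 95th percentile of all clusters (-0.30 to 0.30). Members shared by both cold groups are orange, and the ribosomal (median -0.17) and complement (-0.14) lists lie mostly below 0 while the PPARA (0.20) and interferon (0.16) lists lie mostly above it.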

How the data were processed

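RNA of 20 livers was hybridised to 1-colour Affymetrix arrays. The deposited log2 values were made by the authors with RMA and the Transcriptome Analysis Console, per the submitters' processing notes; versions and build are not given in the sources used here. RMA normalises array distributions, so a shift of all transcripts would not show, and it compresses differences of dim clusters. Of 28846 rows, 6640 control rows were kept out of the tests; 0 columns were left unused. Symbols came from the platform annotation and matched RefSeq. The test on all 22206 clusters was limma 3.58.1 (R 4.3.3; lmFit and eBayes with a mean for each temperature, two-sided, Benjamini-Hochberg, threshold 0.05), and the fit was tested on simulated data. The background covariate is each array's mean over 23 control rows. Its permutation tests used 100000 resamples. Named genes are, above the olfactory receptor level, the 15 shared genes with the smallest p in each direction, and up to 4 shared members per list. The members and lists were chosen with earlier results of these data known. Lists are described by counts and medians, without a test. Alternatives included other variance models, a low-value filter, renormalisation, each warm group alone, a replicate block and leaving out each array. The number of arrays limits the precision.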

Additional observations from a re-analysis of the deposited data

Results flagged for a closer look

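In 312 groups of 5 or 10 arrays, there were 15 flags of a value far from the nearest of the others by Dixon's test. Chance flags about 1 in 20 groups, and 15 flags are no more than that rate gives. The groups of 5 are parts of the pools of 10, so 1 value can be flagged in both. For the background control level the flagged values were 18 °C animal 5, the lowest of its group at 3.64 (next 3.71), and 30 °C animal 4, the highest of the warm pool at 3.75 (next 3.68). For TC1600000930.mm.2, 18 °C animal 1 was the lowest of its group and of the cold pool at 10.43, and 30 °C animal 4 the lowest of the warm pool at 11.73. Array 30 °C animal 4 was also the lowest warm array for C2 (10.68) and the highest of its group for Adgre1 (6.93). Array 18 °C animal 1 was also the lowest of its group for Dcp1b (3.87) and the highest for Serpind1 (16.72). Array 10 °C animal 6 was the lowest cold array for Kif23 (4.02) and the lowest of its group for Mlxipl (11.34). Rpsa read 12.16 in 18 °C animal 7, the highest of its group. Of the 23 °C group, animal 2 was lowest for Kremen1 (5.71), animal 17 for Glcci1 (7.01) and animal 23 for Irf7 (7.59).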

How the results depend on the processing

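The 1 called cluster, also the 1 called and shared, became 0 with the background level as a covariate, 0 with the negative control rows as a covariate (added after seeing the data), and 0 against the 23 °C or 30 °C arrays alone. The count was 4 with an intensity trend and robust variance (with Rpl6, Mug2 and a cluster without symbol), and 2 with array weights, with the filter on low values and with repeated quantile normalisation (each with Ifit1). Leaving out 1 array gave 1 to 6, with TC1600000930.mm.2 among them each time (adjusted p = 0.0019 to 0.039 in limma). There were 6 without 23 °C animal 23, 3 without 10 °C animal 5 or 18 °C animal 5, and 2 without animal 6 or 8 of 10 °C, animal 1 or 3 of 18 °C, or animal 4 or 7 of 30 °C. With the covariate, leaving out 1 array gave 0 or 1 called, the 1 being Cxcl13 without 18 °C animal 3 (adjusted p = 0.0122). The 508 shared clusters became 328 with the covariate, 92 with both parts under 0.01, and 398 to 716 when 1 array was left out, the highest without 30 °C animal 4. The background difference turned to -0.014 with the median of the rows, which is the row with GC number 25, and was 0.050 to 0.066 without single arrays. The 51 named clusters kept their direction in all alternatives run; 10 values of a gene under an alternative became called and 5 lost the call. Animal numbers are shared between groups but do not pair the samples: 1 of 11 pair correlations exceeded 0.1 (-0.21 to 0.17). A fit with the replicate block called 1 cluster, another one (Pisd-ps3, -1.64, adjusted p = 0.0423 in limma), and left 292 shared. Pisd-ps3 was shared in that fit but not in the main fit. It was also called and shared, with no block, when 23 °C animal 23 was left out (-1.53, adjusted p = 0.0029 in limma). List medians near 0 (respiratory chain, urea cycle, cytochromes P450, oxidative stress) changed sign with repeated quantile normalisation. For dim clusters, signal over background limits what can be seen.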

Other observations

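The list of RNA-binding proteins that cells make more of in the cold held 2 genes, measured here in adults kept at 23 °C since birth. Their median difference was 0.26, and 0 were shared by both cold groups: the median was 0.44 at 10 °C and 0.08 at 18 °C. Of 23 circadian clock genes 14 stood higher (median 0.11), but leaving out 18 °C animal 4 gave a median of -0.01, and the background covariate gave -0.16. Of 26 genes of endoplasmic reticulum stress 19 stood lower (median -0.09, but 0.003 with the negative control rows as a covariate), and 0 were shared. Of 33 cell cycle genes 23 stood higher (median 0.10), with Kif23 the 1 shared, beside 1.09% of all clusters on the higher side.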
